A study of Mus musculus with 12 samples.

Results

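Hif3a encodes one of the alpha subunits of the hypoxia-inducible factors (HIF), and it was described here together with 9 other genes of the hypoxia response in mouse primary hippocampal cultures given either a mimic of miR-148a-3p or a control oligonucleotide. The 10 genes, out of 48709 in the files, were taken as a set by name: 4 HIF subunits (Hif3a, Hif1a, Epas1 and Arnt), 3 oxygen-sensing prolyl hydroxylases (Egln1, Egln2 and Egln3) and 3 target genes (Vegfa, Bnip3 and Adm). Hif3a was chosen by its difference in level between mimic and control in these same libraries, so its values are a description without a test. The other 9 were named for their place in the pathway, but with earlier results of these data known, so their p-values and counts of calls are not independent of that choice. All 10 passed the minimum of 5 counts in at least 6 of the 12 libraries.

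The cultures came from embryonic day 17 CD1 mice and were treated at day 10 in vitro with lipid nanoparticles carrying either oligonucleotide. They were harvested 48 h later, at day 12, which gave 6 control and 6 mimic libraries of poly(A) RNA. Per the study's methods, cells of both groups also received ApoE4, hippocampi of several embryos were pooled for a preparation, and such cultures hold neurons and glia. The labels do not say whether the 6 libraries of a group came from separate cultures, so the p-values measure the spread between these libraries, which may be technical. Oxygen was not varied in this design, and no library stands for hypoxia.

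HIF is a pair of proteins, an oxygen-sensitive alpha subunit (HIF-1α from Hif1a, HIF-2α from Epas1, HIF-3α from Hif3a) and a stable beta subunit (ARNT, or ARNT2, which is abundant in neurons). While oxygen is present, the EGLN enzymes hydroxylate prolines of the alpha subunit, the VHL ubiquitin ligase then recognises it, and the proteasome degrades it. When oxygen falls, the alpha subunit persists, binds its partner at hypoxia response elements and switches on genes for glycolysis, blood vessel growth and mitochondrial clearance. Hif3a is the least understood of the alpha genes. It is itself induced in hypoxia, is spliced into several forms, and at least one short form blocks HIF-1α. Much of HIF control acts on protein, which RNA counts do not show, and counts per gene do not separate the splice forms of Hif3a.

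The 2 oligonucleotides are shown first because bases 2 to 8 of a microRNA, the seed, decide which transcripts it can recognise. The seeds are in capitals, written 5′ to 3′.
miR-148a-3p mimic: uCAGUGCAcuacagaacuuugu
negative control: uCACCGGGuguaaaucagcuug
Both sequences are those of the study's reagent list, and since the labels name no sequence, values for the negative control assume that the listed one was given to the control cultures. The mimic was identical to mmu-miR-148a-3p in RefSeq (GRCm38.p6, chr6:51269829-51269850, minus strand). Among the 10 genes, 1 had a seed site of the mimic in its 3 prime untranslated region (UTR), against 3306 of the 15082 tested genes with an annotated UTR (21.9%). That gene was Epas1, and its site matched bases 2 to 7 followed by an A. It is capitalised here within its surroundings at chr17:86832853-86832859 on the plus strand of GRCm38.
Epas1 site: ctgaacaggtagaaaGCACTGAaaat
The seed of the negative control had no match in the UTRs of the 10 genes (0 of 10), against 666 of 15082 tested genes (4.42%). Hif3a thus had no seed site of either oligonucleotide in the UTR searched, and a match or its lack is a description of letters only.

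Library totals ran from 20018234 to 37149112 counts in control and from 28316456 to 33808253 in mimic. Levels are given in CPM (counts per 1000000, on library totals after TMM scaling), and differences as log2 fold changes of mimic over control with their standard error (SE). Of 18847 genes tested, 4182 had an edgeR adjusted p under 0.05 and are referred to as called, which was 22.2%. Control replicate 1 stood apart from the other libraries on the second principal component (47.03, against -16.8 to 7.8 in the others), so results that rest on it are given without it as well. Neuron markers were present in every library, with a summed level of 7980 to 8650 CPM over 11 genes in control and 7890 to 8200 in mimic.

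Hif3a was the member that stood out. The gene (ENSMUSG00000004328) lies at chr7:17031507-17062427 on the minus strand of GRCm38. Its level was lowest at 1.39, median 1.59 and highest at 2.05 CPM in control, and lowest at 5.07, median 5.98 and highest at 6.57 CPM in mimic. Every mimic library was above every control library, with a wide gap between the groups. The group means were 1.67 ± 0.291 and 5.84 ± 0.605 CPM (SD, n = 6 each), a ratio of 3.51 and a log2 fold change of 1.80 with an SE of 0.11. Among all tested genes, 5% had a log2 fold change above 0.50 and 5% had one below -0.47.

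The counts behind this were small, between 33 and 200 per library and 114.1 on average. The spread of Hif3a among control libraries was 0.239 (SD of log2 CPM, n = 6), where counting alone would give 0.215. Among mimic libraries the SD was 0.15 and the counting part 0.108. Without control replicate 1 the log2 fold change was 1.84 with an SE of 0.11.

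**Figure D1:**
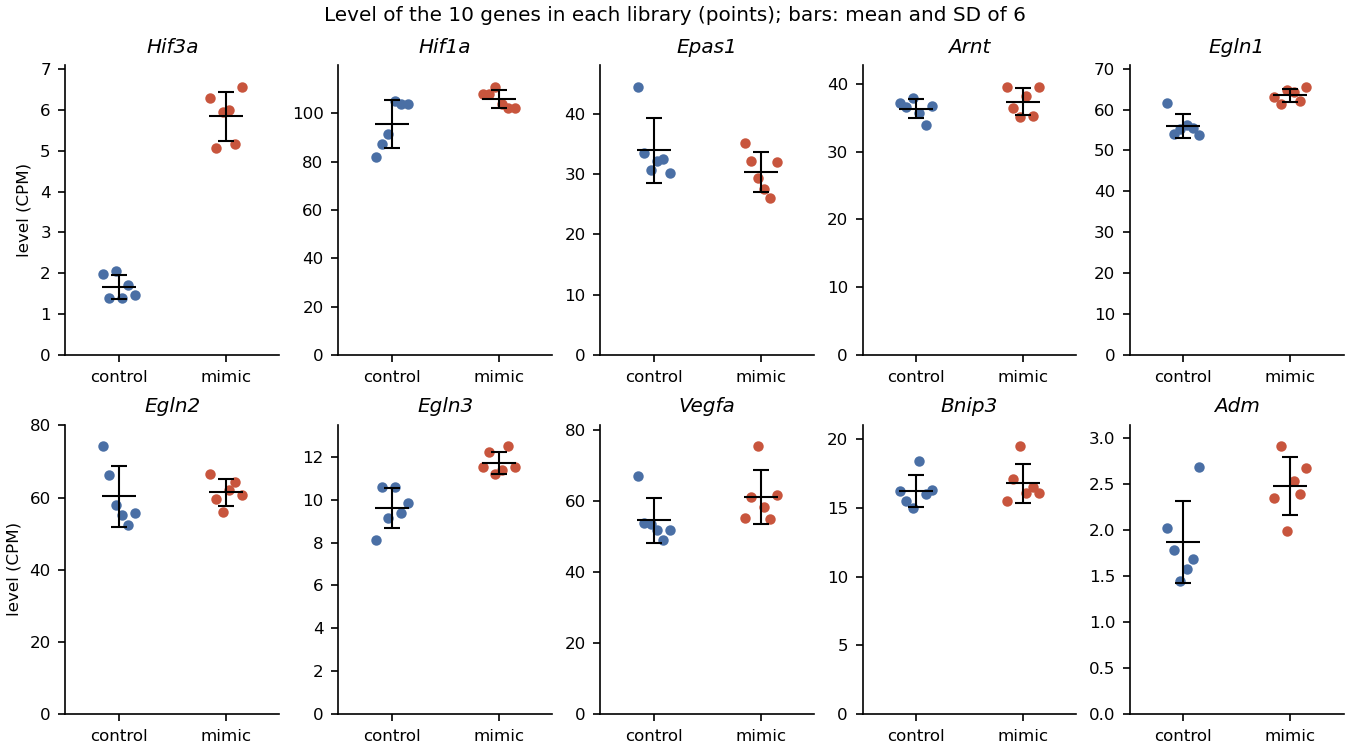
Level in CPM (y axes, from 0) of each of the 10 genes in the 6 control and 6 mimic libraries; points are libraries and black bars the mean and SD. Hif3a separates widely, from at most 2.05 CPM in control to at least 5.07 in mimic, Egln3 separates narrowly, and the groups of the other 8 genes overlap.

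Of the 9 other genes, 3 were called higher (Adm, Egln3 and Egln1) and 0 lower, beside 11.5% of all tested genes called higher and 10.7% called lower. Their median log2 fold change was 0.15, against -0.012 over all tested genes, and none of the 9 had a fold change near that of Hif3a, with a range from -0.15 to 0.42. The groups did not overlap for 1 of the 9, Egln3, beside 13.3% of all tested genes. With 9 genes, 3 called out of a background of this height is a small count.

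Hif1a (ENSMUSG00000021109, chr12:73901375-73947530, plus strand) encodes the alpha subunit that drives most of the acute response to low oxygen. It ranged from 82.0 to 105 CPM in control, with a median of 97.6, and from 102 to 111 CPM in mimic, with a median of 106. The upper part of the control range overlapped the mimic range, and the 3 low values belonged to control replicates 1, 2 and 3. The log2 fold change was 0.15 with an SE of 0.057 and an edgeR adjusted p of 0.0767, and its 95% interval ran from 0.02 to 0.27. It passed the threshold when control replicate 4, 5 or 6 was left out, with adjusted p of 0.037, 0.0468 and 0.0474, and did not when control replicate 1 was left out (0.0905). Exons of Hif1a share 5.6% of their length with the antisense gene Gm15283, which averaged 25.7 counts beside 3033.7 for Hif1a.

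Epas1 (ENSMUSG00000024140, chr17:86753700-86833410, plus strand) encodes HIF-2α, known for its role in vessels and in erythropoietin control. It lay between 30.1 and 44.5 CPM in control, with a median of 32.3, and between 26.1 and 35.2 CPM in mimic, with a median of 30.6. The highest control value was that of control replicate 1 and the groups overlapped. Its fold change, -0.15 on the log2 scale, had an SE of 0.092 (edgeR adjusted p = 0.277, 95% interval -0.36 to 0.052), and it was -0.065 without control replicate 1, with an adjusted p of 0.502. The member with a seed site of the mimic was thus not called lower.

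The beta subunits differed little. Arnt (ENSMUSG00000015522, chr3:95434388-95497240, plus strand), the common partner of all alpha subunits, had 34.0 to 37.9 CPM in control (median 36.7) and 35.2 to 39.6 CPM in mimic (median 37.3). The groups overlapped through most of their ranges, with a log2 fold change of 0.041 (edgeR adjusted p = 0.563, SE 0.043) and a 95% interval from -0.055 to 0.14. Arnt2, the neuronal partner and not one of the 10 genes, was slightly lower, at 195 ± 9.21 CPM in control and 181 ± 2.84 CPM in mimic. Its groups touched without overlapping, and its log2 fold change of -0.11 (SE 0.034) had an edgeR adjusted p of 0.0352. The call was lost in 7 of the 12 fits that left out 1 library (control replicate 2 or 3, or any mimic replicate but 5), without a filter on low counts (0.098) and with a replicate block (0.0874).

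Levels can be compared between genes only per length, here as CPM per kilobase of exon. On that scale the order of the 10 genes and Arnt2 was the same in control and mimic, from Arnt2, Egln2, Hif1a, Egln1, Vegfa, Bnip3, Epas1, Arnt, Egln3 and Adm down to Hif3a. Hif3a stood at 0.248 ± 0.0434 in control and 0.871 ± 0.0901 in mimic (SD), with n = 6 each, while Hif1a ran from 13.9 to 17.9 in control and from 17.4 to 18.8 in mimic. Even in mimic, the highest Hif3a library (0.98) was below the lowest Adm library (1.23).

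The neighbours in this order were not all apart. In both groups the library ranges of Arnt2 and Egln2 overlapped, as did those of Hif1a and Egln1, and those of Egln1 and Vegfa. The ranges of Bnip3 and Epas1 overlapped in control only, and those of Epas1 and Arnt, and of Arnt and Egln3, in mimic only. Every other gene in the order was apart from its neighbour in all 6 libraries of a group.

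The alpha subunits can be set against each other in the same unit. Hif3a made up 1.11% ± 0.223 of the summed level of Hif1a, Epas1 and Hif3a in control and 3.59% ± 0.356 in mimic. Hif1a made up 71.9% ± 4.87 and 74.1% ± 1.83, and Epas1 27.0% ± 4.75 and 22.3% ± 1.73. Hif1a was 67.5 ± 15.6 times as high as Hif3a in control and 20.9 ± 2.34 times in mimic. Hif3a was the rarest alpha transcript in both groups.

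**Figure D2:**
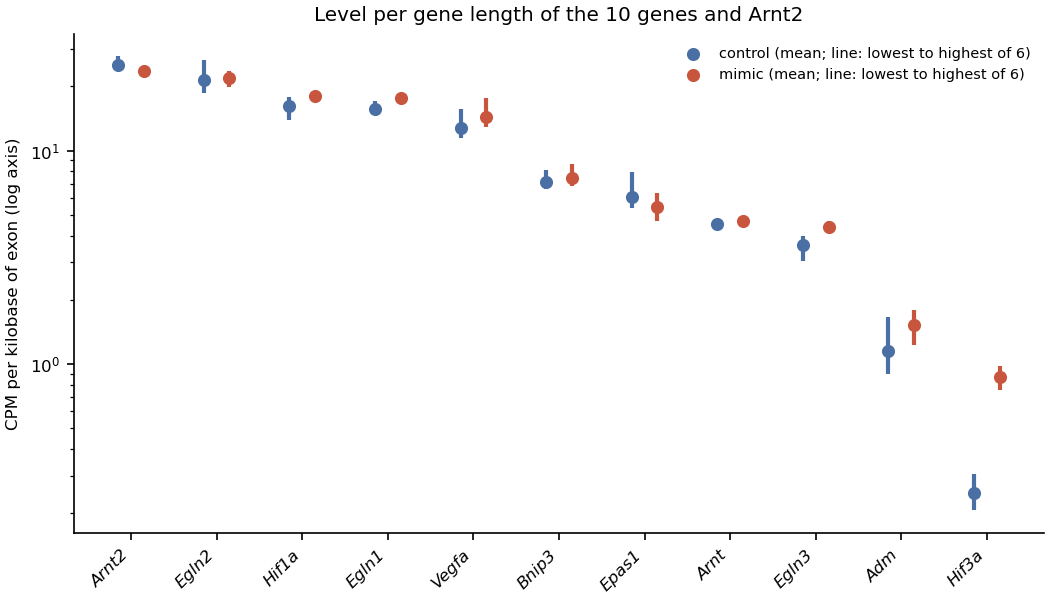
Level per gene length (y axis, log scale, CPM per kilobase of exon) of the 10 genes and Arnt2, ordered by their control mean; dots are group means and lines run from the lowest to the highest of 6 libraries. Hif3a is last in both groups, at 0.248 in control and 0.871 in mimic.

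Among the prolyl hydroxylases, 2 of 3 were called higher, beside 11.5% of all tested genes, and 3 genes are too few to read a share from. Egln3 (ENSMUSG00000035105, chr12:54178981-54203860, minus strand) encodes PHD3, an oxygen sensor that is itself a strong HIF target and so part of a feedback loop. It ran from 8.13 to 10.6 CPM in control (median 9.60) and from 11.2 to 12.5 CPM in mimic (median 11.5). All mimic libraries were above all control libraries, although the gap was narrow. Its log2 fold change was 0.28 with an SE of 0.063, and the edgeR adjusted p of 0.00312 stayed between 0.00233 and 0.0103 when any 1 library was left out.

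Egln1 (ENSMUSG00000031987, chr8:124908587-124949324, minus strand) encodes PHD2, the main sensor under normal oxygen and also a HIF target. Its control libraries lay between 53.7 and 61.6 CPM (median 55.3) and its mimic libraries between 61.3 and 65.6 CPM (median 63.7). The groups overlapped only because control replicate 1, at 61.6 CPM, was above mimic replicate 2, at 61.3. The log2 fold change was 0.18 with an SE of 0.038 and an edgeR adjusted p of 0.00169. Without control replicate 1 it was 0.21, with an adjusted p of 2.74e-05.

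Egln2 (ENSMUSG00000058709, chr7:27158658-27166802, minus strand) encodes PHD1, which is not induced by hypoxia. Its range of 52.4 to 74.3 CPM in control (median 56.8) took in the whole range of 55.9 to 66.4 CPM in mimic (median 61.3). On the log2 scale the change of 0.031 had an SE of 0.073 (edgeR adjusted p = 0.823, 95% interval -0.13 to 0.19), and it was -0.0065 without control replicate 5.

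The wider list of oxygen sensing and HIF turnover held 13 genes, all tested, with 3 called higher and 1 lower (30.8% called, against 22.2% of all tested genes) and a median log2 fold change of 0.019. Beside Egln1 and Egln3, Rbx1 rose by a log2 fold change of 0.13 (edgeR adjusted p = 0.0201, SE 0.038). Rbx1 is the ring protein of the VHL ligase and of many other cullin ligases. Os9, a lectin of endoplasmic reticulum quality control that has been linked to HIF-1α turnover, fell by 0.19 on the log2 scale (edgeR adjusted p = 0.00235, SE 0.04). Vhl itself had a log2 fold change of 0.019 (95% interval -0.058 to 0.10), and Hif1an, the asparagine hydroxylase that blocks HIF activity, one of -0.059 (95% interval -0.14 to 0.02). Neither was called.

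Of the 3 targets among the 10 genes, Adm was called and Vegfa and Bnip3 were not. Adm (ENSMUSG00000030790, chr7:110627661-110629820, plus strand) encodes adrenomedullin, a vasodilator peptide. It ran from 1.45 to 2.68 CPM in control (median 1.73) and from 1.99 to 2.91 CPM in mimic (median 2.46). The groups overlapped, because control replicates 1 and 6 reached into the mimic range. At 64.4 counts per library on average, its log2 fold change of 0.42 had an SE of 0.14 and an edgeR adjusted p of 0.0404, which rose above the threshold in 9 of the 12 fits without 1 library, to at most 0.107, and stayed below it only without control replicate 1 or 6 or mimic replicate 3.

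Vegfa (ENSMUSG00000023951, chr17:46016993-46032369, minus strand) encodes the vascular growth factor that is the best known HIF target. Control libraries lay between 49.2 and 67.1 CPM (median 52.8) and mimic libraries between 55.1 and 75.6 CPM (median 59.8). The overlap came from control replicate 1, the highest of its group, since the 5 other control libraries were at 53.8 CPM or lower and all 6 mimic libraries were above them. Over all 12 libraries the log2 fold change was 0.17 (edgeR adjusted p = 0.163, SE 0.081, 95% interval -0.012 to 0.35). Without control replicate 1 it was 0.23 (SE 0.07) with an adjusted p of 0.0233. Mimic replicate 3 was the highest of its group at 75.6 CPM, and leaving it out gave 0.10 with an adjusted p of 0.336, so both the size and the call for Vegfa depend on single libraries.

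Bnip3 (ENSMUSG00000078566, chr7:138890836-138909519, minus strand) encodes a mitochondrial protein that promotes mitophagy. It ranged from 15 to 18.4 CPM in control (median 16.1) and from 15.5 to 19.5 CPM in mimic (median 16.3). The groups lay on top of each other, with a log2 fold change of 0.051 (edgeR adjusted p = 0.634, SE 0.063) and a 95% interval from -0.09 to 0.19.

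Whether target genes follow Hif3a was then read from 69 known HIF targets, Hif3a left out, of which 66 were tested. The 3 not tested, for too few counts, were Cox4i2, Edn1 and Epo. Of the 66, 14 were called higher and 10 lower, 21.2% and 15.2%, and the median log2 fold change was 0.039. More were called in either direction (36.4%) than among all tested genes (22.2%), and they were divided between the directions. This difference in share was not tested. In each mimic library, the median of the targets against the control mean lay between -0.011 and 0.087 on the log2 scale, below 0 in 1 of the 6 libraries.

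Leaving out the members gave 61 tested targets with 11 higher, 10 lower and a median of 0.029. Of all tested genes, 11.5% were called higher and 10.7% lower. Without control replicate 1, 19 of the 66 were higher and 11 lower, with a median of 0.047. The same fit also called more genes over the whole data, 2697 higher and 2453 lower. With that library these were 2163 and 2019, so the increase in calls was not limited to the targets. Of the 24 targets called with all libraries in, 18 changed by less than 0.5 on the log2 scale, where Hif3a differed by 1.80.

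**Figure D3:**
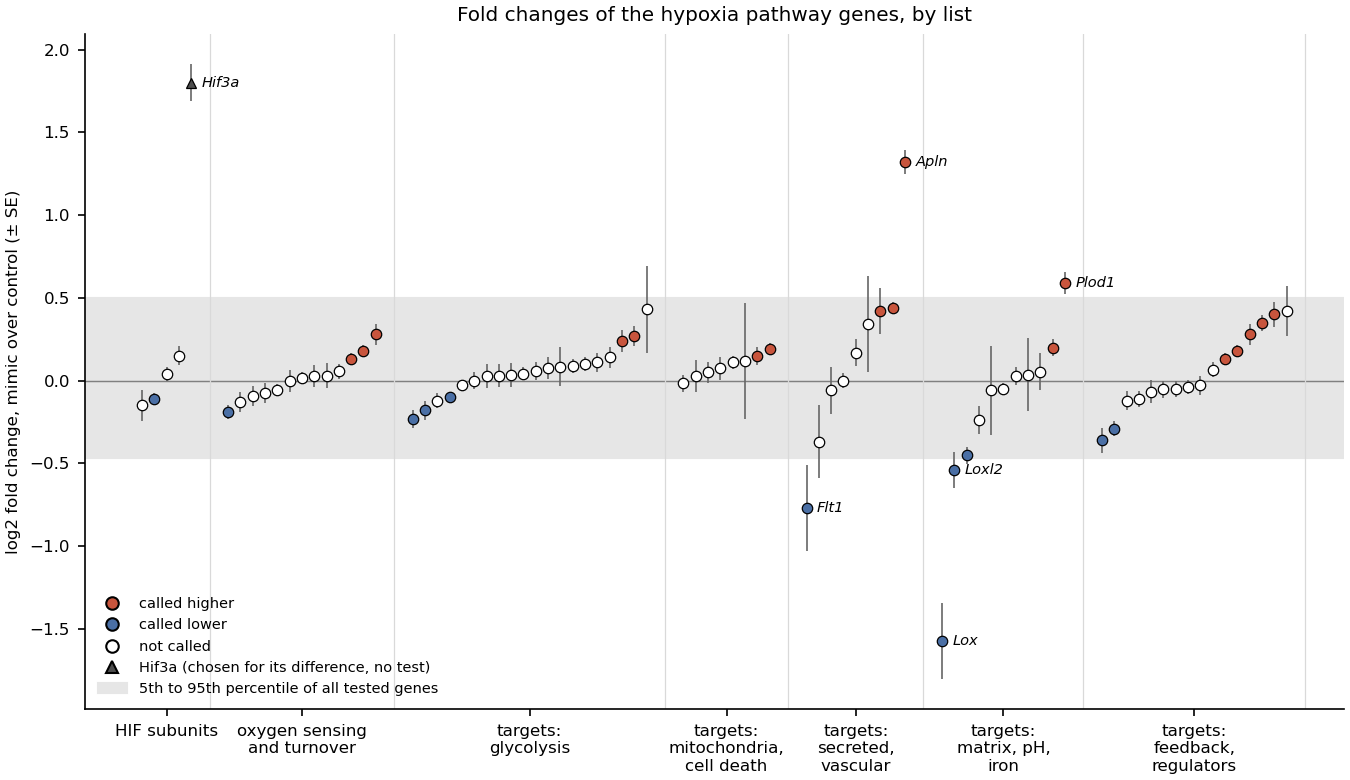
Log2 fold change of mimic over control with its SE (y axis) for the tested genes of each hypoxia list (x axis, ordered by value within a list); red is called higher, blue called lower, white not called, the triangle is Hif3a, and the grey band holds all tested genes between the 5th and 95th percentile, -0.47 to 0.50. Most genes lie inside the band, and those outside it are split between the directions, with Lox at -1.57 and Apln at 1.32. Of the tested genes, 1 is not drawn.

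Genes of glucose uptake and glycolysis, the classical HIF-1α programme, had a share of calls near that of all tested genes. Of 20 tested, 2 were called higher and 3 lower (25.0%, against 22.2% of all tested genes), with a median log2 fold change of 0.051. The enolase Eno1 rose by 0.27 (edgeR adjusted p = 0.00367, SE 0.061) and the brain aldolase Aldoc by 0.24 (edgeR adjusted p = 0.0139, SE 0.065). Pfkfb4, which makes the activator of phosphofructokinase, fell by 0.23 on the log2 scale, the hexokinase Hk1 by 0.18 and the phosphofructokinase Pfkp by 0.10, with edgeR adjusted p of 0.0051, 0.023 and 0.0207. The call for Hk1 was lost without control replicate 2, mimic replicate 2 or mimic replicate 3 (up to 0.0547), and that for Pfkp without mimic replicate 1 (0.0575), without a filter (0.0878) and with the replicate block (0.0765). Ldha, which makes lactate from pyruvate, had a log2 fold change of 0.089 (95% interval -0.01 to 0.19) and the glucose transporter Slc2a1 one of 0.077 (95% interval -0.075 to 0.23), and neither was called. Without control replicate 1, 5 genes of this list were called higher, among them Ldha (0.12, edgeR adjusted p = 0.00949) and Slc2a1 (0.14, edgeR adjusted p = 0.0379), so the calls for both rest on that library. Gapdh, Pgk1 and Pgam1 have near-identical pseudogenes that can take up or remove their reads, so their values are uncertain.

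In the list of mitochondria and cell death, 2 of 8 tested genes were called higher and none (0) lower, a share of 25.0% that is near the 22.2% of all tested genes. Ddit4, an inhibitor of mTOR signalling also known as REDD1, rose by 0.19 on the log2 scale (edgeR adjusted p = 0.00125, SE 0.038). Fam162a, a mitochondrial protein, rose by 0.15 (edgeR adjusted p = 0.0482, SE 0.053), a call lost with the replicate block (0.0901) and in 8 of the 12 fits without 1 library (control replicates 3 to 6 and mimic replicates 2, 3, 5 and 6). Of its exon length, 19.8% is shared with Wdr5b on the other strand.

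Among secreted and vascular genes, 3 of 10 tested were higher and 2 lower (50.0% called, against 22.2% of all tested genes). Apln, which encodes apelin, a peptide that acts on vessels and neurons, ran from 4.09 to 5.52 CPM in control and from 10.9 to 12.2 CPM in mimic. The groups did not overlap, and the log2 fold change of 1.32 (edgeR adjusted p = 1.1e-09, SE 0.071) was the closest to Hif3a among the 66 targets. Igfbp3, a carrier of insulin-like growth factors, lay between 211 and 224 CPM in control and between 286 and 317 CPM in mimic, and rose by 0.44 on the log2 scale (edgeR adjusted p = 3.95e-08, SE 0.033). The VEGF receptor Flt1 was called lower with only 16.2 counts per library on average (log2 fold change -0.77, SE 0.26, edgeR adjusted p = 0.0433), a call lost with the replicate block (0.0629) and in 8 of the 12 fits without 1 library (control replicates 2 to 5 and mimic replicates 1, 4, 5 and 6).

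Genes of matrix, pH and iron were split too, with 2 of 11 higher and 3 lower (45.5% called, against 22.2%). The collagen lysyl hydroxylases rose, Plod1 by 0.59 (edgeR adjusted p = 4.24e-06, SE 0.066) and Plod2 by 0.20 (edgeR adjusted p = 0.0132, SE 0.054). The lysyl oxidases fell, Lox by 1.57 on the log2 scale (edgeR adjusted p = 0.000259, SE 0.23) and Loxl2 by 0.54 (edgeR adjusted p = 0.00134, SE 0.11), as did Hmox1, the heme oxygenase, by 0.45 (SE 0.052). Both enzyme pairs act on collagen, the first inside the cell and the second outside it. The pH regulator Car9, a standard hypoxia marker, had 21.7 counts per library and a log2 fold change of 0.036 (SE 0.22), with either sign depending on the library left out.

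Among feedback genes and regulators, 5 of 17 tested were higher and 2 lower (41.2% called, against 22.2%). Next to Egln1 and Egln3, the nuclear receptor Rora rose by 0.40 (edgeR adjusted p = 0.000601, SE 0.073), Ppp1r3c, a regulator of glycogen storage, by 0.35 (edgeR adjusted p = 3.98e-05, SE 0.048), and the histone demethylase Kdm3a by 0.13 (edgeR adjusted p = 0.0129, SE 0.036). Ndrg1, one of the most widely used hypoxia markers, fell by 0.36 on the log2 scale (edgeR adjusted p = 0.0025, SE 0.077), and the mitochondrial adenylate kinase Ak4 fell by 0.29 (edgeR adjusted p = 8.92e-05, SE 0.044). Ankrd37 had a log2 fold change of 0.42 (SE 0.15) at 48.5 counts per library and was not called (edgeR adjusted p = 0.0617), but was without mimic replicate 4 (0.0448) or 6 (0.0233). Its exons share 22.7% of their length with Lrp2bp on the other strand.

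Libraries of 1 group also differ in Hif3a, and the other genes were set against it within each group, which leaves the difference between groups out. Much of that spread can be counting noise, with an SD of log2 CPM of 0.239 beside 0.215 from counting in control. In mimic the SD was 0.15 beside 0.108 from counting. With 6 libraries per group a relation would be hard to see, so the lack of a passing one decides nothing. Over 18 relations (9 genes in 2 groups of 6 libraries), Pearson's r of log2 CPM ran from -0.89 to 0.86. Its sign was positive in both groups for 5 genes, Epas1, Arnt, Egln1, Egln2 and Vegfa. It was negative in both for Hif1a, Egln3, Bnip3 and Adm. In mimic, r was only -0.042 for Hif1a and 0.05 for Egln2. The strongest relation was Egln3 in control, with r = -0.89 and Spearman's rho = -0.89 (exact permutation p = 0.0278 and 0.0333, two-sided). Without the 2 libraries farthest from the median of Hif3a, r for Egln3 in control was -0.93. In mimic, Egln3 had r = -0.82 and rho = -0.37 (exact permutation p = 0.133 and 0.497), and r turned to 0.83 without the 2 farthest libraries, so the sign there rests on those. Egln1 in mimic had r = 0.86 and rho = 0.77 (exact permutation p = 0.0417 and 0.103), and r = 0.29 without the 2 farthest libraries, so it rests on those. None of the 18 (0) passed Benjamini-Hochberg adjustment, whose lowest value was 0.375 for r and 0.60 for rho.

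The genes whose level varied most like that of Hif3a within groups were Ankrd35 (r = 0.88), Lzts1 (r = 0.87) and Xkr6 (r = 0.86), out of 12370 genes with at least 100 counts on average and over 12 libraries centred on their group means. They are the highest of many values, so they carry no test, and the log2 fold changes of the 3 genes were -0.054, 0.046 and 0.14. Part of the spread of Hif3a that they follow can be counting noise.

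Promoters were compared for the core of the hypoxia response element, ACGTG or GCGTG, on both strands, so that CACGT and CACGC count as well and a CACGTG counts on each strand. Promoters were RefSeq windows from 250 bases before to 50 bases after a gene's start (GRCm38.p6), and 9 of the 10 genes had one, all but Epas1. All 9 had at least 1 match in a window, against 64.2% of 12830 tested genes and 43.8% of 32851 promoters. Vegfa had its match in the second of 2 windows, and genes with more than 1 window have more room for one. The longer core ACGTGC or GCGTGC was present in 6 of 9, against 27.9% and 16.3%. Hif3a, Egln3 and Arnt were without it. The windows of Hif3a and of the 3 other members called higher, Egln1, Egln3 and Adm, follow in the orientation of the gene, with the matches in capitals.
Hif3a, chr7:17062378-17062677, minus strand: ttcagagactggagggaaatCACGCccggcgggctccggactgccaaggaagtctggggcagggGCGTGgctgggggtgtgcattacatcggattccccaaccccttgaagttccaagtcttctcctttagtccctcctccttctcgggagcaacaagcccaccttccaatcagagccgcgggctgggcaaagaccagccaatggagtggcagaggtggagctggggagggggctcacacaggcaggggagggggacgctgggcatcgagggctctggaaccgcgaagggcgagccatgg
Egln1, chr8:124949205-124949504, minus strand: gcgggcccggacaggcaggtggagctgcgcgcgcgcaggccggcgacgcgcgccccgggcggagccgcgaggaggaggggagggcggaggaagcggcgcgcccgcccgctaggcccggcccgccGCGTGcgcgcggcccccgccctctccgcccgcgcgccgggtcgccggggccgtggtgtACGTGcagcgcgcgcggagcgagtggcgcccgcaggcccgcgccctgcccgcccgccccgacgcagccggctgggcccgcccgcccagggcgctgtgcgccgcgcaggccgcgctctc
Egln3, chr12:54203825-54204124, minus strand: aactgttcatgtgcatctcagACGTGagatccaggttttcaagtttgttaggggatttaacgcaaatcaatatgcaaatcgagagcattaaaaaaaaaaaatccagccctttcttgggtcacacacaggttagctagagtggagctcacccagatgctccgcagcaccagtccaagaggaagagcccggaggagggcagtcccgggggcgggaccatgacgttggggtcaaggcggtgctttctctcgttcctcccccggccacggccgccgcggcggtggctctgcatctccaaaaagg
Adm, chr7:110627407-110627706, plus strand: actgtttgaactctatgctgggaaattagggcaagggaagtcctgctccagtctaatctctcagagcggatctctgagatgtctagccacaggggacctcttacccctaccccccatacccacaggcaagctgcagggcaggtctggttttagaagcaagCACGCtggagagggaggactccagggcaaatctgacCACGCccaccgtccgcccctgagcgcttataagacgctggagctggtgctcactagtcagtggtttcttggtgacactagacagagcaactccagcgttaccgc
In the window of Hif3a, 2 matches started 230 and 186 bases before the start of transcription, 1 of them on the other strand. Egln1 had 2, the nearer one 68 bases before its start. Egln3 had 1 match, 229 bases before its start, and Adm had 2, both on the other strand, 90 and 54 bases before it. Apln, the target with the fold change closest to that of Hif3a, had no match in its window, and neither did Arnt2. Plod1, another target called higher, had 2 matches, the nearer one 14 bases after its start. A match here says nothing about whether HIF was bound in these cells.

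Markers of several other cell types of the culture moved with the treatment and so with Hif3a. The calls per list stand beside 11.5% of all tested genes called higher and 10.7% called lower. All 9 markers of cycling cells were called higher in mimic, and their summed level was 189 to 235 CPM in control and 406 to 428 CPM in mimic. Of 10 markers of the oligodendrocyte lineage, 6 were higher and 1 lower, with sums of 429 to 725 CPM and 811 to 1000 CPM. The 725 CPM was that of control replicate 1, and the other control libraries lay between 429 and 460 CPM. Most of this sum was Olig1, with a mean of 370 CPM in control and 720 CPM in mimic. Of 10 astrocyte markers, 7 were higher and 1, Gfap, was lower, with sums of 4950 to 5430 CPM and 5810 to 6260 CPM. These 3 sums did not overlap between the groups.

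Vascular and mesenchymal markers went the other way or were split. Of 9 endothelial markers, 6 were tested and 2 (Flt1 and Kdr) were lower, with sums of 47.5 to 69.7 CPM in control and 29.1 to 51.9 CPM in mimic. Of 10 pericyte and mesenchymal markers, 2 were higher and 2 (Acta2 and Tagln) lower, with sums of 213 to 279 CPM and 121 to 245 CPM. Of 7 ependymal markers 5 were lower, with sums of 116 to 137 CPM and 88.8 to 114 CPM, which did not overlap between the groups either. Of 9 microglial markers 2 were lower, with sums of 23.1 to 26.9 CPM and 21.9 to 30.2 CPM. Of 11 neuron markers 1 (Gad2) was higher and 2 (Tubb3 and Stmn2) lower. Beside 22.2% of all tested genes called in either direction, the microglial and neuron counts are near the background. No marker was at 0 in all libraries.

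In bulk RNA, fewer cells of a type and less RNA per cell cannot be told apart, and Aldoc and Flt1 stand on both a marker list and a HIF target list. The part of the astrocyte, oligodendrocyte lineage and cycling cell markers in the higher level of Hif3a, and of the endothelial and mesenchymal markers in the lower levels of Lox and Flt1, was not tested.

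**Figure D4:**
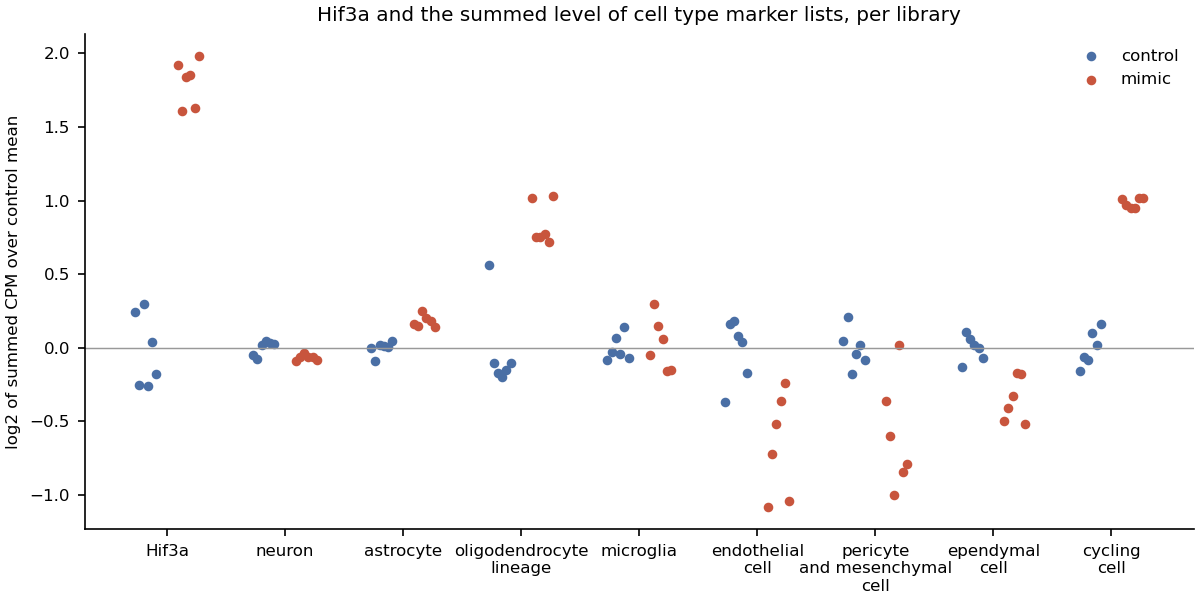
Log2 of the level of Hif3a and of the summed level of each cell type marker list over the control mean (y axis), 1 point per library. Hif3a lies between 1.61 and 1.98 in the mimic libraries and the cycling cell sum between 0.95 and 1.02. The oligodendrocyte lineage and astrocyte sums of mimic are above those of control. The ependymal sums of mimic are all below those of control, and the endothelial and mesenchymal sums lean below with overlap.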

How the data were processed

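Per the labels, the authors mapped 50 bp single-end reads with STAR 2.5.2b (build mm10) and counted reads per gene with featureCounts of Subread 1.5.1. These deposited raw counts covered 48709 genes in 12 libraries, of which 48349 were named from GENCODE M21 on GRCm38, the same build. Whether counting used strand is not stated. The authors also deposited a table of normalized signal, the counts divided by a factor per library, which was used for 1 alternative. The members and all gene lists were chosen with earlier results of these data known.

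Genes that reached 5 counts in 6 libraries or more were tested by quasi-likelihood F-test in edgeR 4.0.16 (robust, TMM, no covariate, R 4.3.3), adjusted by Benjamini-Hochberg over all 18847 tested genes. The SE is the log2 fold change divided by the square root of F, and 95% intervals use t with 10 degrees of freedom. The test was first tried on simulated data. Alternatives were DESeq2 1.42.0, its size factors in edgeR, no filter, a minimum of 20 counts, a replicate block, each library left out, limma 3.58.1 on log2 of the signal plus 1, changed target lists and a longer promoter motif. Named genes were the 10 members and Arnt2, for each list the 2 higher and 2 lower called genes with the largest change and a mean of at least 100 counts, and the 3 genes most like Hif3a. Other genes named (Ldha, Slc2a1, Car9, Ankrd37, Vhl, Hif1an, Rbx1, Pfkp, Flt1, Hmox1, Kdm3a, Ppp1r3c) were chosen after their values were seen, or complete a count. Exact permutation tests used scipy 1.17.1. Seed sites were sought in the longest 3 prime UTR of each gene. Of the genes under the naming rule, 1 is counted in its lists but not reported here.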

Additional observations from a re-analysis of the deposited data

Results flagged for a closer look

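Of 80 groups of 6 libraries compared over 40 genes, 12 held a library whose level lay apart from the 5 others by more than Dixon's 95% limit, and chance flags about 1 in 20 groups. Of the 12, 8 were control replicate 1, the library that also stood apart on the second principal component. It was the highest of its group for Epas1, with 44.5 CPM against 30.1 to 33.5 in the others, Egln1 with 61.6 against 53.7 to 56.2, Vegfa with 67.1 against 49.2 to 53.8, Arnt2 with 212 against 187 to 196, Aldoc with 580 against 418 to 457, Slc2a1 with 37.2 against 27.3 to 30.3 and Ddit4 with 105 against 90.0 to 95.3 CPM. It was the lowest for Loxl2, with 10.1 against 15.7 to 17.3 CPM. Without this library the log2 fold changes of Egln1, Vegfa, Aldoc, Slc2a1 and Ddit4 were 0.21, 0.23, 0.31, 0.14 and 0.22, against 0.18, 0.17, 0.24, 0.077 and 0.19 with it. That of Loxl2 was -0.63 without it against -0.54 with it, while those of Epas1 and Arnt2 were closer to 0, at -0.065 and -0.08 against -0.15 and -0.11.

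The other 4 were mimic replicate 3 for Vegfa, with 75.6 CPM against 55.1 to 61.7, and for Vhl, with 77.5 against 71.4 to 73.5 CPM, mimic replicate 5 for Arnt2, with 187 against 179 to 182 CPM, and control replicate 5 for Pfkfb4, with 19.1 against 20.9 to 21.3 CPM. Hif3a had no such library in either group.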

How the results depend on the processing

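The log2 fold change of Hif3a was 1.80 to 1.81 under DESeq2, its size factors, both filters, the replicate block and the deposited normalized table, and 1.75 to 1.89 with 1 library left out. Among the targets, 13 to 15 were called higher and 8 to 11 lower under the other tests, scalings, filters and the block. With 1 library left out, 12 to 19 were higher and 9 to 11 lower, with a median of 0.028 to 0.066. Over all genes these fits called 1880 to 2697 higher and 1612 to 2453 lower.

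Replicate numbers did not pair the libraries: the correlation of same-numbered libraries ran from -0.038 to 0.093, and 0 libraries correlated best with their own number. With the replicate block, 1950 genes were called higher and 1709 lower, none of the 4 HIF subunits other than Hif3a (Hif1a, Epas1, Arnt and Arnt2) was lower (0, in place of 1), 1 gene of mitochondria and cell death was higher (in place of 2) and 1 secreted or vascular gene was lower (in place of 2). None of these 4 was lower (0) without a filter either, and 1 secreted or vascular gene was lower with the minimum of 20 counts, where Flt1 was not tested.

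Leaving out 1 library moved the log2 fold change of Hif1a between 0.11 and 0.18, Egln2 between -0.0065 and 0.10, Vegfa between 0.10 and 0.23, Adm between 0.35 and 0.56 and Car9, which was not called in any of these fits, between -0.068 and 0.15. Over these fits, between 0 and 1 of the 4 HIF subunits other than Hif3a were called higher and between 0 and 1 lower. Glycolysis genes called higher ranged from 2 to 5 and lower from 2 to 4, mitochondria and cell death genes called higher from 1 to 3, and secreted and vascular genes called lower from 1 to 2. The changes of sign of Egln2 and Car9, the calls gained by Hif1a and Vegfa and the calls lost by Adm had no tested cause. Hif3a, Adm, Ankrd37, Car9 and Flt1 rest on few counts, which limits the precision of their changes.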
